A study of Mus musculus with 2 samples.

Results

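Imprinted genes are genes that are transcribed mainly from the maternal or mainly from the paternal chromosome, and a list of 38 of them was followed here. A member was a row whose gene identifier carries the listed mouse symbol. This found 37 of the 38 among 42462 genes matched to a symbol, and Peg13 was not analysed here. The data were 2 poly(A) RNA-seq libraries, biological replicates 1 and 2, of G1E-ER4 cells. G1E-ER4 is an immortalized erythroid line, made from Gata1-null mouse cells, in which GATA-1 activity was put back as a fusion to an oestrogen receptor domain that hormone activates. Both libraries came from cells kept for 24 hours in 10 nM 17beta-estradiol. The labels describe the source as male, postnatal and at an age of 0 day, and they do not state whether the line is a single clone. Both libraries form 1 group, with no untreated library used here, so nothing below separates the hormone's action from the resting state of the line.

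At most imprinted loci a differentially methylated region, the imprinting control region, is marked in the egg or the sperm, and the mark is copied at each cell division. The mark sets which chromosome is read, often through a long noncoding RNA that silences its neighbours in cis or through an insulator that decides which promoter an enhancer reaches. Many of the genes act on growth of the embryo and placenta, and many are read in only some tissues. The tables give 1 summed level per gene for both chromosomes, so the parental origin of a transcript could not be read from them. Maternal and paternal below refer to textbook knowledge of the expressed allele.

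Levels are given in TPM, the deposited abundance estimate that is scaled to transcript length and to the same total in each library, and read support in expected counts, the deposited estimate of reads per gene. Detection here means at least 1 TPM in each of the 2 libraries. Replicate 1 held 20412826 expected counts and replicate 2 held 18564086. A gene at 0 could still have held up to 3 counts per library, a limit that, like the intervals below, takes account of counting error alone. Genes carry no p-value, because 2 libraries of 1 group allow no test of a difference between conditions (an exact sign-flip test cannot fall below 0.5).

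The cells carried the markers of their label. All 8 erythroid markers examined were detected, with summed levels of 74032 and 84745 TPM. Most of that sum was Hbb-bs, at 61175 and 69726 TPM. The list includes Gata1, at 2714 and 3180 TPM. GATA-1 was put back into this line by construction, so detection of Gata1 is no evidence of cell type. None of 6 trophoblast, 6 fibroblast or 6 myeloid markers was detected, and all 6 trophoblast markers were at 0 counts in both libraries. The summed TPM was 0.03 and 0 for fibroblast markers and 0.52 and 0.55 for myeloid markers. Of 6 neuronal markers 1 was detected, Tubb3, and the list summed to 2.37 and 2.40 TPM. Of 6 lymphoid markers 1 was detected, Ptprcap, and the list summed to 2.47 and 2.82 TPM.

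The sequences of 3 stretches are shown first, because each lies at the start of a detected member or of a silent neighbour at the same locus. Peg3 and Usp29 are read in opposite directions from RefSeq start sites 164 bases apart, and the whole stretch between those starts is given. Igf2r and Airn lie on opposite strands of 1 locus, and the 250 bases before each start are given. The bases are RefSeq sequence of GRCm38.p6, in the 5′ to 3′ direction, and capitals mark each CpG, the dinucleotide at which mammalian DNA is methylated. The first lies at chr7:6730420-6730582 and is written on the plus strand, which is the strand of Usp29. The second lies at chr17:12769707-12769956 on the minus strand, and the third at chr17:12741061-12741310 on the plus strand.
Peg3 to Usp29: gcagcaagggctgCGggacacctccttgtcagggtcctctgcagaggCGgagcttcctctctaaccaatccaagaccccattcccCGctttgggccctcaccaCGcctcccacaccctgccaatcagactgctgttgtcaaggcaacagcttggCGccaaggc
Igf2r: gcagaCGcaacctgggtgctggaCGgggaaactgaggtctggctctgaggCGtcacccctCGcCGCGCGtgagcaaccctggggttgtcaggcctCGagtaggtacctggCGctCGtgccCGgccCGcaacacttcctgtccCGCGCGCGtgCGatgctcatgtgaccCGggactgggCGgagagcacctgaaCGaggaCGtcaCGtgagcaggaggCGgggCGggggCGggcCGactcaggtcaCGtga
Airn: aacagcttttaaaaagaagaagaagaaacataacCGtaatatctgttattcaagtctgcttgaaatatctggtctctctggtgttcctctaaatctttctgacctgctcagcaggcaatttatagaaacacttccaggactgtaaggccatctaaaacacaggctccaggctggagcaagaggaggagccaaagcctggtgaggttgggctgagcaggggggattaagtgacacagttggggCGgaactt
The stretch between Peg3 and Usp29 holds 5 CpG in 163 bases, the one before Igf2r 27 and the one before Airn 2. The ratio of observed CpG to the number that base composition alone would give was 0.337, 0.913 and 0.157, respectively.

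Fewer of the imprinted genes were detected than were not, and most of those not detected had 0 counts. Of the 37 members, 12 (32.4%) were detected, against 24.3% of all genes and 41.2% of protein-coding genes. Another 16 (43.2%) had 0 counts in both libraries, against 55.6% of all genes and 39.9% of protein-coding genes. The remaining 9 had reads but stayed under the detection line. Among the 30 protein-coding members 11 (36.7%) were detected and 13 (43.3%) were at 0, both shares near those of protein-coding genes as a whole. Among the 7 members that do not code for protein, Nespas alone was detected (14.3%) and 3 were at 0 (42.9%), against 7.05% and 71.7% of all genes that do not code for protein. Members were also sorted by the textbook allele assigned to the gene as a whole. Of the 17 labelled maternal 5 were detected, and of the 20 labelled paternal 7. The detected genes labelled maternal include Gnas, Cd81 and Tssc4, and those labelled paternal include Inpp5f. As described below, these genes are known to be read from both chromosomes at some starts or in some tissues. The split is therefore by label and not by parental origin of the transcripts.

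Little mean level lay near the detection line. The lowest detected member, Nespas, had a mean of 2.05 TPM, and the highest of those not detected, Nnat, 0.77 TPM. Detected members had a median of 24.1 TPM beside 17.8 TPM over all detected genes and 20.8 TPM over detected protein-coding genes. Of the 12, 9 reached 10 TPM and 2 reached 100 TPM. All members summed to 1371 TPM in replicate 1 and 1369 TPM in replicate 2, or 0.137% of all TPM. Gnas held 68.9% ± 0.287 (SD, n = 2) of that sum, and the members without Gnas held 0.0427% of all TPM.

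**Figure D1:**
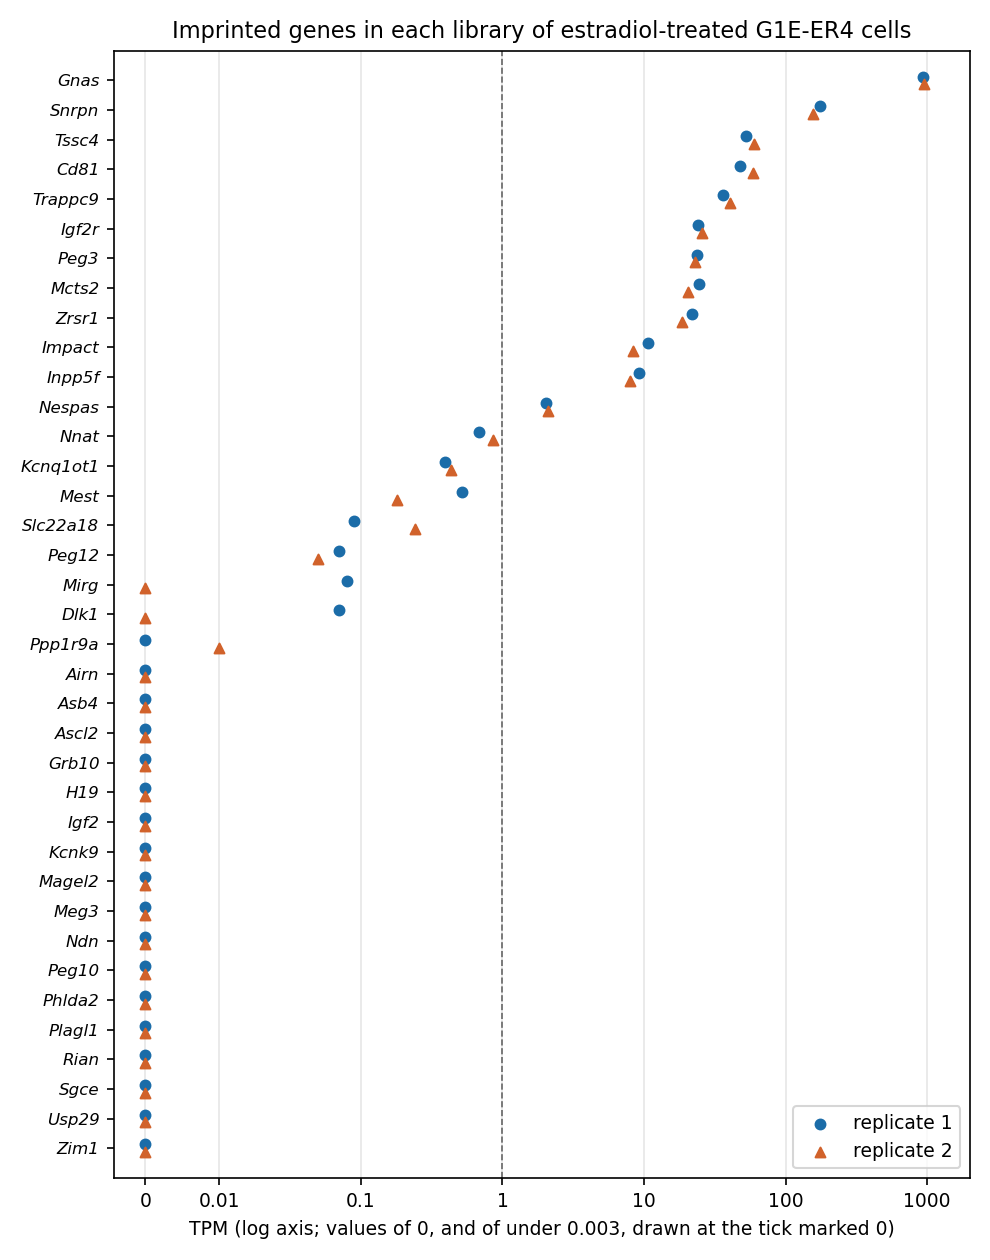
Level of each of the 37 measured imprinted genes in replicate 1 (circles) and replicate 2 (triangles), in TPM on a log axis, with genes ordered by mean level and the dashed line at the detection threshold of 1 TPM. The 12 detected members run from Nespas at 2.05 TPM to Gnas at 943 TPM, and 16 members have 0 counts in both libraries.

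Gnas was the most abundant member. It encodes the stimulatory G protein alpha subunit, which couples hormone receptors to adenylyl cyclase, and several other products that start further upstream (chr2:174284320-174346744, GRCm38, plus strand). Its level was 941 TPM in replicate 1 and 945 TPM in replicate 2, from 27854 and 24927 expected counts. Gnas thus stood above 98.4% of the detected genes, and its libraries differed by less than those of any other detected member on the scaled log2 scale (-0.02).

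The starts of Gnas carry different imprints. In order along the gene they are Nesp, which is read from the maternal chromosome, XL and the untranslated exon 1A, which are read from the paternal chromosome, and exon 1 of the alpha subunit, which is read from both chromosomes in most tissues. Transcripts that start at 174330006 to 174330287, the exon 1 group, held 82.2% and 80.2% of Gnas TPM in replicates 1 and 2. Those that start at 174297859, the XL group, held 10.1% and 9.60%, with 5750 and 4998 expected counts. The exon 1A group, at 174327570 to 174328023, held 7.18% and 9.69%.

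The Nesp group, at 174284320 to 174285358, was close to silent at 0.37 and 0.34 TPM, from 12 and 10.1 expected counts. The XL group, taken by itself, reached 95.1 and 90.8 TPM, a level above every other member but Snrpn. By share of expected counts the XL group held 20.3% ± 0.420 (SD, n = 2) and the exon 1 group 74.2% ± 0.0214, since XL transcripts are long. Transcripts of different groups that reach past the exon 1 starts share downstream exons. The division among them is an estimate that rests on reads in the first exons and on the annotated lengths. Gnas-204 of the XL group, with 2187 and 1898 expected counts, ends at 174302018, before the exon 1A and exon 1 groups begin. All reads of the Nesp group were assigned to Gnas-210, which ends at 174296895.

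**Figure D2:**
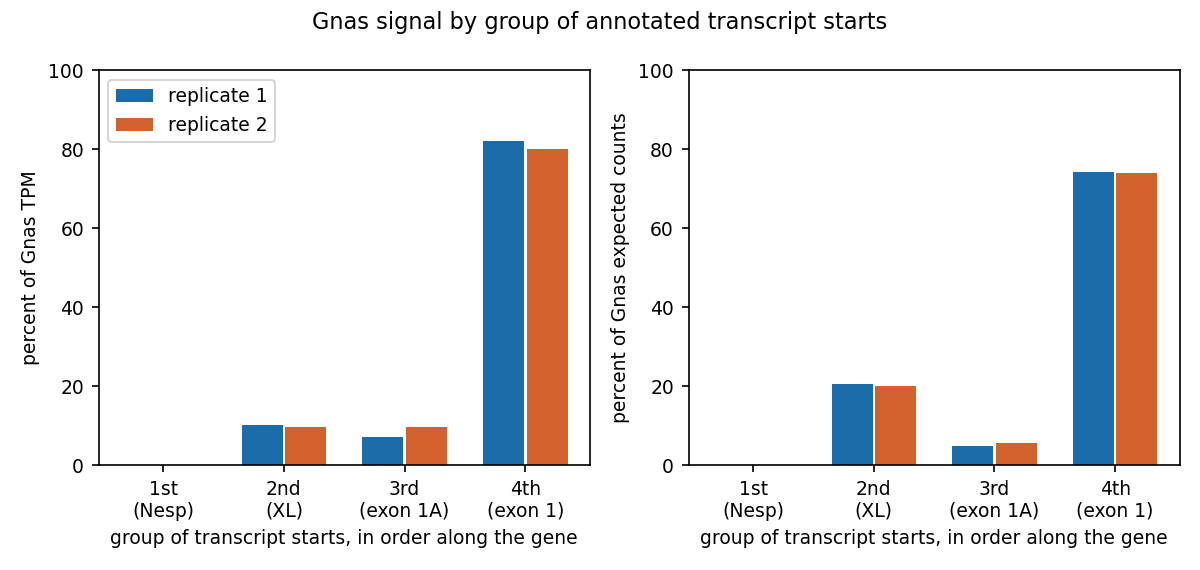
Share of Gnas signal held by each of the first 4 groups of annotated transcript starts, in percent of Gnas TPM (left) and of Gnas expected counts (right), with 1 bar per library. The exon 1 group holds most of the signal in both libraries on both scales, and the bar of the Nesp group (0.04% of TPM) is too low to see.

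Nespas is a noncoding RNA read antisense to the Nesp exon and needed, in textbook accounts, to silence Nesp on the paternal chromosome. It had 2.02 and 2.08 TPM, from 54.8 and 49.2 expected counts, and lay 460-fold below Gnas, with a log2 ratio of Gnas over Nespas of 8.85 ± 0.03 (SD, n = 2). Its reads were all assigned to the transcripts that start at 174295389 to 174295436, and the Nespas transcript that starts at 174285435 had 0. Of the Nespas exon bases 38.5% overlap an exon of another gene, Gnas included, and whether counting used strand is not stated, so the split between the strands is uncertain.

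Snrpn, which encodes a core protein of spliceosomal particles and lies at the Prader-Willi locus (chr7:59982495-60140219, minus strand), was the second most abundant member. It had 175 TPM in replicate 1 and 156 TPM in replicate 2. All of its signal was assigned to Snrpn-201, and Snrpn-202, whose start lies far upstream at 60140219, had 0 reads. Snurf, a short reading frame on the same strand that is read from the same paternal chromosome, had 344 and 337 TPM but fewer expected counts, 998 and 891 against 5333 and 4332 for Snrpn. Both are parts of 1 transcript in textbook accounts, and 68.2% of Snrpn's 36-base stretches are found in no other gene, so the division between them is uncertain. The counts of both genes summed to 6330 and 5222.

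The other members of the Prader-Willi region were silent or nearly so. Ndn and Magel2, which encode related proteins of the MAGE family and are read mostly in neurons, had 0 counts in both libraries. Peg12 had 3 and 2.02 counts. Snrpn was therefore at least 1231-fold above Ndn per length, counting Ndn at its limit of 3 counts per library.

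Distal chromosome 7 carries 2 neighbouring imprinted domains, with H19 and Igf2 in the first and the genes under Kcnq1ot1 in the second. H19, a noncoding RNA abundant in the embryo, and Igf2, a foetal growth factor, both had 0 counts in both libraries. H19 could have held up to 0.152 and 0.166 TPM. Only 37.1% of the 36-base stretches of Igf2 are found in no other gene of GENCODE M21, while the counts rest on the earlier M4. The 0 of Igf2 may therefore cover only a part of its length, and how much is uncertain. No ratio of Igf2 to H19 can be formed.

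In the second domain Cd81 and Tssc4 were detected. Cd81, a tetraspanin of the cell surface (chr7:143052739-143067934, plus strand), had 48.0 and 59.0 TPM, and 97.6% ± 0.516 (SD, n = 2) of it came from its leading transcript. Tssc4, which takes part in assembly of the U5 spliceosomal particle (chr7:143069249-143071093, plus strand), had 52.3 and 59.8 TPM. The ranges of this pair over the libraries overlapped, and Cd81 over Tssc4 was -0.07 ± 0.07 on the log2 TPM scale, with the opposite sign, 0.28, in expected counts. Both are known to be imprinted in the placenta and read from both chromosomes in many other tissues. Of Tssc4's exon bases 11.9% overlap Trpm5 on the other strand, which itself had only 0.31 and 0.11 TPM.

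The noncoding RNA Kcnq1ot1 is known to silence neighbouring maternal genes on the paternal chromosome. Of the 6 members of the second domain, Cd81 and Tssc4 alone were detected, and 2 had 0 counts in both libraries. Phlda2, which limits placental growth, and Ascl2, a transcription factor of trophoblast, had 0 counts, and the transporter gene Slc22a18 had 2 and 4. Kcnq1ot1 itself had 534 and 526 expected counts, but its single annotated transcript is 84395 bases long, so its level was 0.39 and 0.43 TPM, under the detection line. Cdkn1c, a cell cycle inhibitor of the same domain, had 0 counts, which puts Kcnq1ot1 at least 3.91-fold above it per length. Kcnq1, whose introns Kcnq1ot1 crosses on the other strand, also had 0 counts.

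The map of the 1179 kb from H19 to Osbpl5 holds 16 members and listed neighbours and leaves out other annotated genes there. Of these 16 genes 4 were detected, against 24.3% of all genes and 41.2% of protein-coding genes. Besides Cd81 and Tssc4 the detected genes were Tspan32 and Nap1l4. Tspan32, a tetraspanin of blood cells next to Cd81, had 205 and 279 TPM. Nap1l4, a histone chaperone, had 60 and 57.7 TPM. Tspan32, Cd81 and Tssc4 lie within 427 to 491 kb of the H19 start. The nearest genes of the map to either side, Ascl2 and Trpm5, had 0 counts and 0.31 and 0.11 TPM, respectively.

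**Figure D3:**
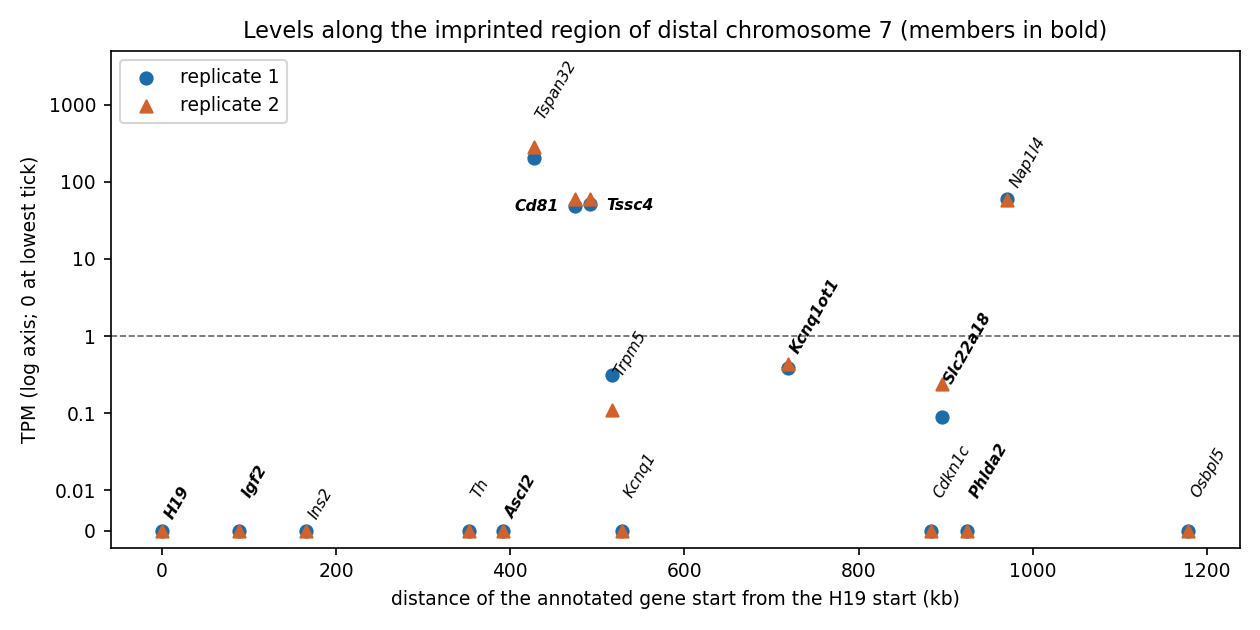
Level of 16 genes along distal mouse chromosome 7 in replicate 1 (circles) and replicate 2 (triangles), in TPM on a log axis, against the distance of the gene start from the H19 start in kilobases, with members in bold and the dashed line at 1 TPM. Of these 16 listed genes only Tspan32, Cd81, Tssc4 and Nap1l4 lie above the line, and 9 have 0 counts in both libraries.

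Igf2r, the receptor that carries insulin-like growth factor 2 to lysosomes for breakdown (chr17:12682406-12769664, minus strand), was detected while its ligand gene was at 0. It had 24.0 and 25.7 TPM, from 3326 and 3295 expected counts, and Igf2r-201 held 98.2% ± 0.926 (SD, n = 2) of its TPM. Airn, the paternal noncoding RNA that overlaps Igf2r and silences it in cis (chr17:12741311-12860136, plus strand), had 0 counts in both libraries. Igf2r was at least 95.3-fold above Airn per length. The windows shown for the 2 starts hold 27 and 2 CpG. Each window lies wholly before its RefSeq start and holds no base from the start onward. The imprint of the locus is known to lie at the Airn promoter, and how much of it the Airn window covers was not examined. The CpG count of that window is therefore no measure of the imprinted region. Airn transcripts are known to be largely unspliced and unstable, and the tables hold the spliced annotated form only.

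At the Peg3 locus 1 of 3 members was detected. Peg3, a zinc finger protein read from the paternal chromosome (chr7:6703892-6730431, minus strand), had 23.8 and 22.9 TPM from 3044 and 2562 expected counts. Transcripts from the start next to Usp29, at 6730419 to 6730431, held 96.2% and 92.6% of its TPM. Usp29, a ubiquitin protease gene that shares this promoter region and is also paternal, had 0 counts, as did the maternal zinc finger gene Zim1. Peg3 was at least 287-fold above Usp29 and at least 348-fold above Zim1 per length. The 163 bases shown above lie between the RefSeq starts of Peg3 and Usp29. The Peg3 start group, with 3034 and 2545 expected counts, reaches into that stretch, and the GENCODE start of Usp29, at 6730578, lies inside it.

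Trappc9, a subunit of a complex that tethers transport vesicles (chr15:72589620-73061204, minus strand), had 36.3 and 40.7 TPM. Its reads were assigned to both annotated start groups. The transcript that starts at 73055810 held 43.6% ± 0.679 (SD, n = 2) of Trappc9 TPM. The leading transcript, from the start group at 73061045 to 73061204, held 55.7% ± 1.22. Both transcripts end at 72589620, so the division between them is an estimate. Kcnk9, a potassium channel gene of the same locus that is read from the maternal chromosome in brain, had 0 counts, so Trappc9 was at least 228-fold above it per length.

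The paternal members Mcts2 and Zrsr1 are retrogenes, copies of an X-linked gene that were inserted into an intron of a host gene. Mcts2, a translation re-initiation factor copy inside H13 (chr2:152687035-152687946), had 24.5 and 20.3 TPM. Its parent Mcts1 had 8.31 and 5.19 TPM, and the copy was 3.39-fold above the parent, with a log2 ratio of 1.76 ± 0.29 (SD, n = 2). Mcts2 over its host H13 was 0.56 ± 0.30 on the log2 TPM scale and -0.60 in expected counts, which take no account of length. Of the 36-base stretches of Mcts2, 95.9% are found in no other gene.

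Zrsr1, a splicing factor copy inside Commd1 (chr11:22972005-22976496), had 21.98 and 18.7 TPM. Its parent Zrsr2 had 26.5 and 23.0 TPM, for a log2 ratio of -0.28 ± 0.02 per length but 1.16 in expected counts. The host Commd1 had 73.7 and 78.3 TPM, for a log2 ratio of -1.91 ± 0.23 per length but 0.92 in expected counts. Of the Zrsr1 exon bases 9.17% overlap Commd1 on the other strand, so the division between them is uncertain. The order of Zrsr1 and these partners therefore depends on whether length is taken into account.

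Inpp5f, an inositol phosphatase gene (chr7:128611328-128696425, plus strand), had 9.21 and 7.99 TPM. Its imprinted form is known from brain as a short paternal transcript from an internal start, while the full-length form is read from both chromosomes. Here the full-length start group, at 128611328 to 128611360, had 3.07 and 2.82 TPM, and the most downstream group, at 128687546 to 128688489, had 3.16 and 3.8 TPM. By expected counts the order was the other way, with 231 and 194 for the full-length group and 161.5 and 160 for the downstream group. The transcript with the largest share differed between the libraries.

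Impact, a regulator of the translation kinase GCN2 that lies on chromosome 18, had 10.6 and 8.4 TPM from 577 and 417 expected counts. Its range over the libraries overlapped that of Inpp5f. In the middle of the order Igf2r, Peg3, Mcts2 and Zrsr1 lay close together, and the range of Mcts2 overlapped those of the other three. Tssc4 and Cd81 also overlapped, while Trappc9 lay below both and above Igf2r in each library.

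At 7 of the 17 loci no member was detected. At the Peg10 locus on chromosome 6, the retrotransposon-derived gene Peg10 and its divergent neighbour Sgce, an adhesion protein gene whose start lies 0.099 kb away, both had 0 counts, as did Asb4, and Ppp1r9a had 0 and 2 counts. Further along the same region Pon2 reached 33.0 and 33.2 TPM and Pon3 10.5 and 7.62 TPM. Casd1, which lies on the other side of Peg10 and Sgce, had 3.38 and 3.39 TPM. Thus 3 of the 10 listed genes of this region were detected, against 24.3% of all genes and 41.2% of protein-coding genes. None of the 3 was a member, and other genes of the region were not counted. At the Dlk1-Meg3 locus the paternal Notch ligand homologue Dlk1 and the maternal noncoding RNAs Meg3 and Mirg each had 1 count in 1 library and 0 in the other, and the maternal Rian had 0. Plagl1, a zinc finger regulator, and Grb10, an adaptor that restrains insulin signalling, had 0 counts.

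Mest and Nnat are paternal genes that lie beside or inside another gene, and each had a few reads. Mest, a hydrolase-like gene of mesoderm, had 0.52 and 0.18 TPM from 11.7 and 5.37 counts, and lay under its neighbour Copg2 by a log2 ratio of -5.94 ± 0.70 (SD, n = 2). Mest and Copg2 overlap on opposite strands over 23.1% of the Mest exon bases. Nnat, a small membrane proteolipid of neurons, had 0.68 and 0.86 TPM from 10.2 and 14 counts, with a log2 ratio of -3.53 ± 0.27 to its host gene Blcap.

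For the 16 members at 0 in both libraries, 3 counts would have corresponded to 0.0377 to 0.259 TPM in replicate 1 and 0.0414 to 0.284 TPM in replicate 2. A median of 99.9% of their 36-base stretches is found in no other gene, against 95.7% for the detected members. At 5 loci both a detected member and a member at 0 counts were found.

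Other imprinted genes and cluster neighbours were detected at a similar share. Of 42 such genes with a row, 16 (38.1%) were detected, against 24.3% of all genes and 41.2% of protein-coding genes. Another 18 were at 0, and those detected had a median of 17.2 TPM. The 4 highest were Snurf, Tspan32, Commd1 and, at 75.8 and 68.0 TPM, Chrac1, a histone-fold protein gene near Trappc9.

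Genes that make, keep or read imprints were mostly present. Of 24 such genes 18 (75.0%) were detected, against 24.3% of all genes and 41.2% of protein-coding genes. The median over all 24 was 21.8 TPM. The highest was Trim28, the corepressor that zinc finger proteins bring to imprinting control regions, at 533 and 598 TPM. Dnmt1, the methyltransferase that copies methylation after replication, had 195 and 208 TPM, and its partner Uhrf1 117 and 137 TPM. Ezh2, the methyltransferase subunit of Polycomb complex PRC2, had 150 and 133 TPM.

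The genes that set imprints in germ cells were low or at 0. Dnmt3a and Dnmt3l, the de novo methyltransferase and its cofactor, had 0 counts in both libraries, while Dnmt3b had 3 and 2.9 TPM. Dnmt3a was at least 32.3-fold below Dnmt3b per length. Zfp57 and Dppa3, which protect imprints in the early embryo, also had 0 counts, and Zfp445, a zinc finger protein that binds imprinting control regions too, had 25.8 and 23.8 TPM.

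**Figure D4:**
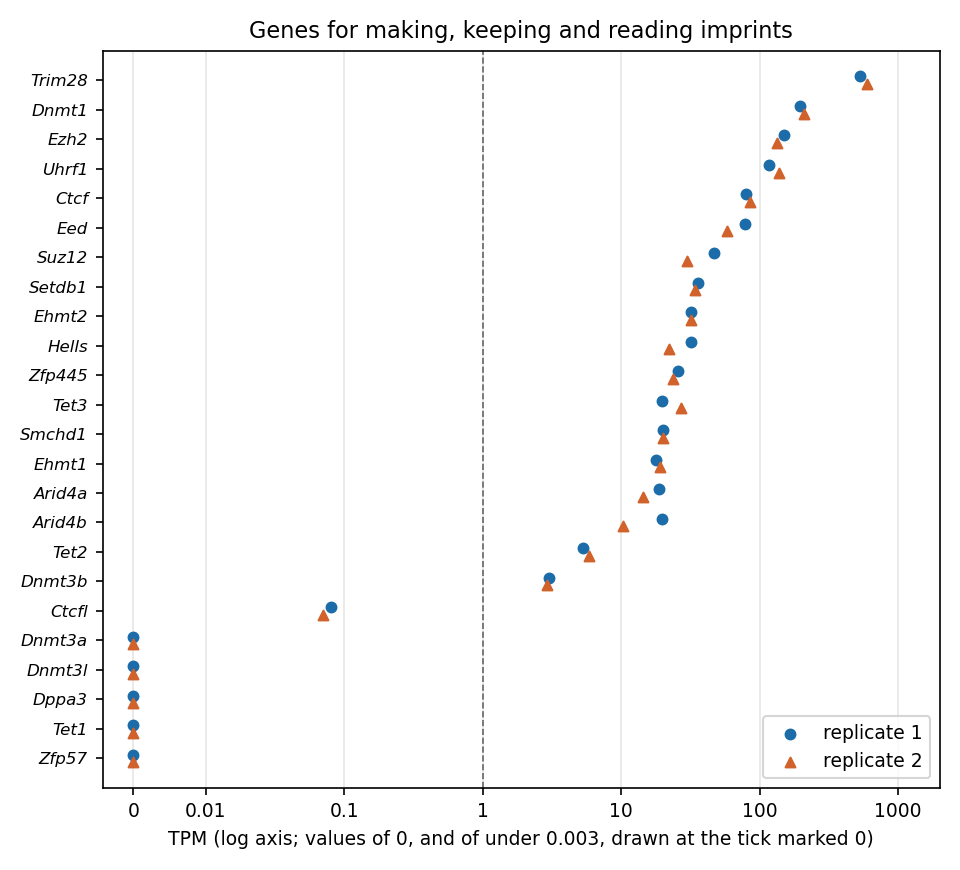
Level of 24 genes that make, keep or read imprints in replicate 1 (circles) and replicate 2 (triangles), in TPM on a log axis, with the dashed line at 1 TPM. The 18 detected genes run from Dnmt3b at 2.95 TPM to Trim28 at 565 TPM, and 4 genes have 0 counts in both libraries.

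The CpG content of promoters differed less between detected and other members than it did between detected and other genes at large. In RefSeq windows of 250 bases before to 50 after a start, matched for 30 members and 18845 genes, the median CpG ratio was 0.713 over 9 detected members and 0.605 over 21 members not detected. Over all genes it was 0.827 for 7298 detected and 0.317 for 11547 not detected. A ratio of 0.6 or more was found for 5 of 9 detected members (55.6%), against 83.8% of detected genes, and for 13 of 21 members not detected (61.9%), against 27.4% of genes not detected. With only the 250 bases before the start the members' medians were 0.609 and 0.618, in the opposite order, and those of all genes 0.798 and 0.305. Where a gene has several windows the highest ratio was taken. No test was made, and members of 1 locus can share a promoter region.

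**Figure D5:**
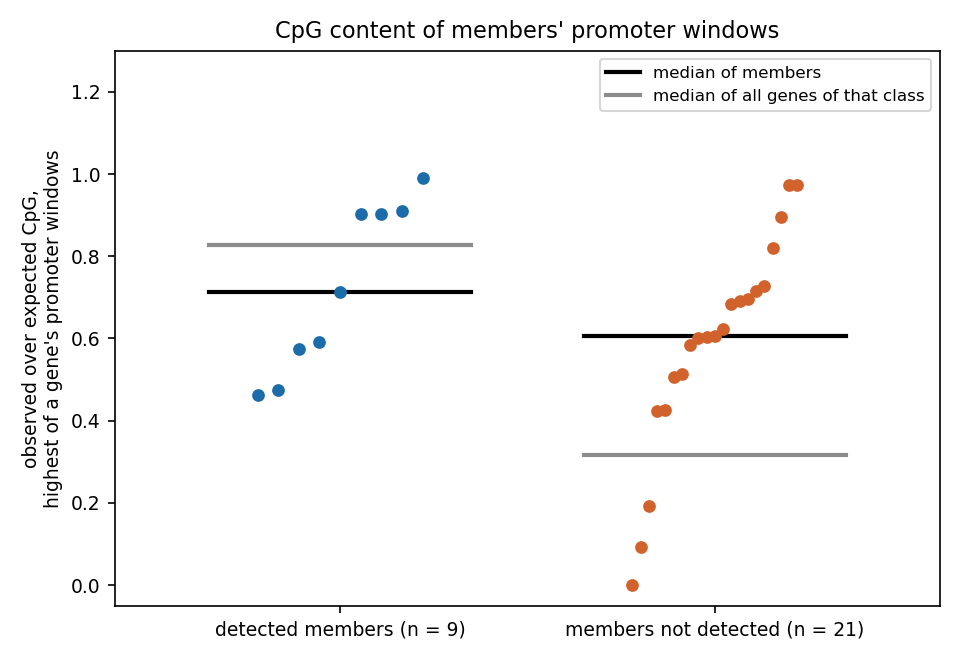
Ratio of observed to expected CpG in the promoter window of each member with a RefSeq window, for 9 detected and 21 not detected members, 1 point per gene, with black lines at the members' medians and grey lines at the medians of all genes of that class. The members' medians, 0.713 and 0.605, lie closer together than those of all genes, 0.827 and 0.317.

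Of 3 short motifs searched on both strands of these windows, TGCCGC, the core bound by ZFP57 when methylated, was present in 2 of 9 detected and 7 of 21 not detected members, against 23.6% of detected and 10.5% of not detected genes (15.5% of all). AGATAA, a form of the GATA motif, was present in 0 of 9 and in 2 of 21, Rian and Slc22a18, against 7.40% of detected and 13.3% of not detected genes (11.01% of all). AAGATGGC, a form of the YY1 motif, was present in no member's window and in 3.52% of all genes. These are matches of letters in short windows, and imprinting control regions can lie elsewhere.

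The 2 libraries gave like levels of the members. Over 11011 genes the biological coefficient of variation, the spread between libraries beyond counting noise, was 12.4%. Of 13 members with at least 50 scaled counts, 0 differed over 1.5-fold between the libraries, against 3.86% of 9311 genes. Impact differed most, with a log2 ratio of replicate 2 over replicate 1 of -0.33 (95% Clopper-Pearson interval -0.52 to -0.15). Cd81 followed at 0.31 (0.19 to 0.42), then Mcts2 at -0.26 and Zrsr1 at -0.23. The median absolute log2 ratio was 0.16 for the members and 0.14 for all 9311 genes.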

How the data were processed

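Single-end polyadenylated RNA sequencing of G1E-ER4 cells was used as deposited, with 1 gene table and 1 transcript table per library. Per the deposited manifests the reads were handled on mm10 with GENCODE annotation M4. For the aligner, the quantifier and the use of strand, the answer is not given in the sources used here. The tables, per the file headers, hold expected counts (estimates that share a read among the places it fits), TPM as deposited by the authors (scaled by effective length), a posterior mean TPM, and each transcript's percent of its gene's TPM. Reads of 36 bases, as length minus effective length implies, are short, which limits how well overlapping and near-identical genes can be separated.

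Of 69691 rows, 42462 matched a symbol in GENCODE M21 (GRCm38), which gave classes, coordinates, unique 36-base shares and exon overlaps; unmatched rows held 0.185% of the expected counts and were left out. The 3-count limit was 0.147 and 0.162 CPM in replicates 1 and 2. Ratios are of TPM within a library, as the mean and SD over both, and against a gene at 0 the lowest value with 3 counts per library is printed. Transcripts were grouped where starts lay within 1000 bases, for genes with 20 or more counts. Library ratios and the common dispersion used rounded expected counts with TMM scaling in edgeR 4.0.16 (R 4.3.3), with DESeq2 1.42.0 size factors as an alternative. The procedure was tested on simulated data. Replicates are biological per the labels, though nothing says that they were separate cultures.

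The members and all lists, pairs and motifs were chosen with earlier results of these data known. All members are accounted for. Of the other lists the 4 highest genes and those in a pair are named, and the neighbours on distal chromosome 7 and near Peg10, the imprint factors at 0, Zfp445 and the markers detected in other cell types were named after their values were seen. Promoter sequences are from RefSeq (GRCm38.p6).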

Additional observations from a re-analysis of the deposited data

How the results depend on the processing

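With the detection line moved, 13 members passed at 0.5 TPM, 11 at 5 TPM, 14 at 10 expected counts and 16 on the posterior mean TPM, which contains a prior count, against 12 at 1 TPM; with either library left out the count was 12. The members' share of all TPM, 0.137%, was 0.229% of expected counts, 0.0427% without Gnas (a setting chosen after seeing the data) and between 0.136875% and 0.137121% with a library left out. Members over 1.5-fold apart between libraries numbered 0 at 50 scaled counts, also with DESeq2 size factors or deposited TPM. At 10 scaled counts the number was 1 of 14 (Nnat), against 8.97% of 11306 genes. Without a filter it was 3 of 17 (Slc22a18, Mest and Nnat), against 20.38% of 15004 genes. At these 2 looser settings DESeq2 size factors gave the same members, and deposited TPM gave 0 and 2 (Slc22a18 and Mest). With only the 250 bases before a start the median CpG ratio was 0.609 for detected members and 0.618 for the others. Expected counts, which do not divide by length, turned the sign of 4 of 15 log2 ratios: Mcts2 over H13 to -0.60, Zrsr1 over Commd1 to 0.92, Cd81 over Tssc4 to 0.28 and Zrsr1 over Zrsr2 to 1.16. All 15 kept their sign with either library left out. The 15 include bounds against a gene at 0 that was set at 3 counts, and the sign of such bounds could hardly turn. The 4 that turned are all ratios of genes with reads. No paired analysis was possible because both libraries belong to 1 group. Genes with few reads, such as Mest and Nnat, are limited by depth.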
